A study of Mus musculus with 6 samples.

Results

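Chemokines are small secreted proteins that direct the movement of leukocytes and stromal cells, and 10 of their genes, *Cxcl1*, *Cxcl9*, *Cxcl10*, *Cxcl12*, *Cxcl14*, *Ccl2*, *Ccl5*, *Ccl7*, *Ccl8* and *Ccl11*, were followed in the calvaria of newborn mice. They were taken by symbol from tables of 44556 genes, and all 10 were found. Bulk RNA-seq had been carried out on parietal bone of 3 OsxCre and 3 OsxCre;Stat3fl/fl newborns, littermates on the C57BL/6 background, to learn how loss of STAT3 in pre-osteoblasts changes gene expression. Cre, driven by *Osx* and thus made chiefly by pre-osteoblasts, is present in the controls too, and what sets the second genotype apart is its floxed *Stat3* alleles. Cells of the calvaria that do not descend from *Osx*-expressing cells, such as macrophages, vessel cells and muscle, should keep *Stat3*. The libraries of each genotype came from 3 mice.

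Chemokines fall into the CXC and CC families by the spacing of their first cysteines, and each acts through G protein-coupled receptors on the cells it attracts. Some are inducible: interferons raise the CXCR3 ligands CXCL9 and CXCL10, and TNF or IL-1 acting through NF-kappaB raises CCL2, CCL7 and CXCL1. Others are made in unstimulated tissue. CXCL12 is the best known of these in bone, where osteoblast precursors and reticular stromal cells release it to hold hematopoietic cells, and CXCL14 is made by many epithelia and fibroblasts.

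The targeted gene was examined first. *Stat3* had 150, 135 and 141 CPM (counts scaled to a common library size by TMM) in the OsxCre libraries and 153, 155 and 155 CPM in those labelled OsxCre;Stat3fl/fl (log2 fold change 0.12, standard error 0.07, adjusted p = 0.442, edgeR quasi-likelihood test). *Stat3* was thus not lower in the libraries labelled OsxCre;Stat3fl/fl. The floxed alleles lose only some exons, and only in cells with Cre, so a count over the whole gene in whole bone need not fall and does not check the labels. Each direction given here is one between libraries by their labels. The study describes male newborns, whereas *Xist* had between 7333 and 12392 counts in every library, *Ddx3y* and *Kdm5d* had 0, and *Eif2s3y* and *Uty* had 1 count each, in library 2 labelled OsxCre;Stat3fl/fl. The depth was 9686843 to 12080044 counts in the OsxCre libraries and 8193651 to 8771037 in the others, so that 3 counts, taken as the floor of a library, correspond to 0.252 to 0.368 CPM. Osteoblast markers were abundant (summed level of 10 genes 14349 to 19335 CPM in OsxCre and 13329 to 16969 CPM in the libraries labelled OsxCre;Stat3fl/fl), as were markers of skeletal muscle (8 genes, 27927 to 30169 and 32982 to 49109 CPM), which is outside the labelled bone. Of all genes tested 1.26% were called, and their median log2 fold change was -0.0037. Among the osteoblast markers, 3 of 10 had a log2 fold change above 0 and 7 below, and the 1 called, *Ibsp*, for the matrix protein bone sialoprotein, was lower without overlap (1003 ± 65.3 and 633 ± 27.2 CPM, SD, n = 3, log2 fold change -0.66, adjusted p = 0.0213, edgeR quasi-likelihood test, 0.0399 to 0.105 with a library left out). Of the muscle markers all 8 had a log2 fold change above 0, and the 1 called, *Myh3*, for an embryonic myosin, was higher without overlap (342 ± 42.0 and 1122 ± 387 CPM, SD, n = 3, 1.71, adjusted p = 0.0204, 0.0132 to 0.0967). Both calls were kept only without OsxCre library 3 or library 2 labelled OsxCre;Stat3fl/fl.

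All 10 chemokines had counts in every library, but *Cxcl1*, *Ccl5* and *Ccl8* were below the filter on low counts, which left 7 for the test across genes. One of these 7, *Cxcl9*, differed at an adjusted p under 0.05, and it was higher in the libraries labelled OsxCre;Stat3fl/fl. Of the 15600 genes tested, 1.26% passed in either direction. At an unadjusted p under 0.05, 4 of the 7 were higher (*Cxcl9*, *Cxcl10*, *Ccl2* and *Ccl7*), against 8.03% of all genes tested, and 0 were lower, against 8.34%. Among the 7, the libraries labelled OsxCre;Stat3fl/fl lay above every OsxCre library for the same 4 genes, against 10.8% of all genes tested, and below every OsxCre library for *Ccl11*, against 12.2%. The 3 chemokines below the filter overlapped. The median log2 fold change of the 7 was 0.81, beside a median of -0.0037 over all genes tested. *Cxcl9* reached the filter only through the libraries labelled OsxCre;Stat3fl/fl, so its presence among the 7 is not independent of its difference. The counts and the median of the 7 include *Cxcl9* and were not computed without it, so nothing is concluded from them about the 7 as a set.

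**Figure D1:**
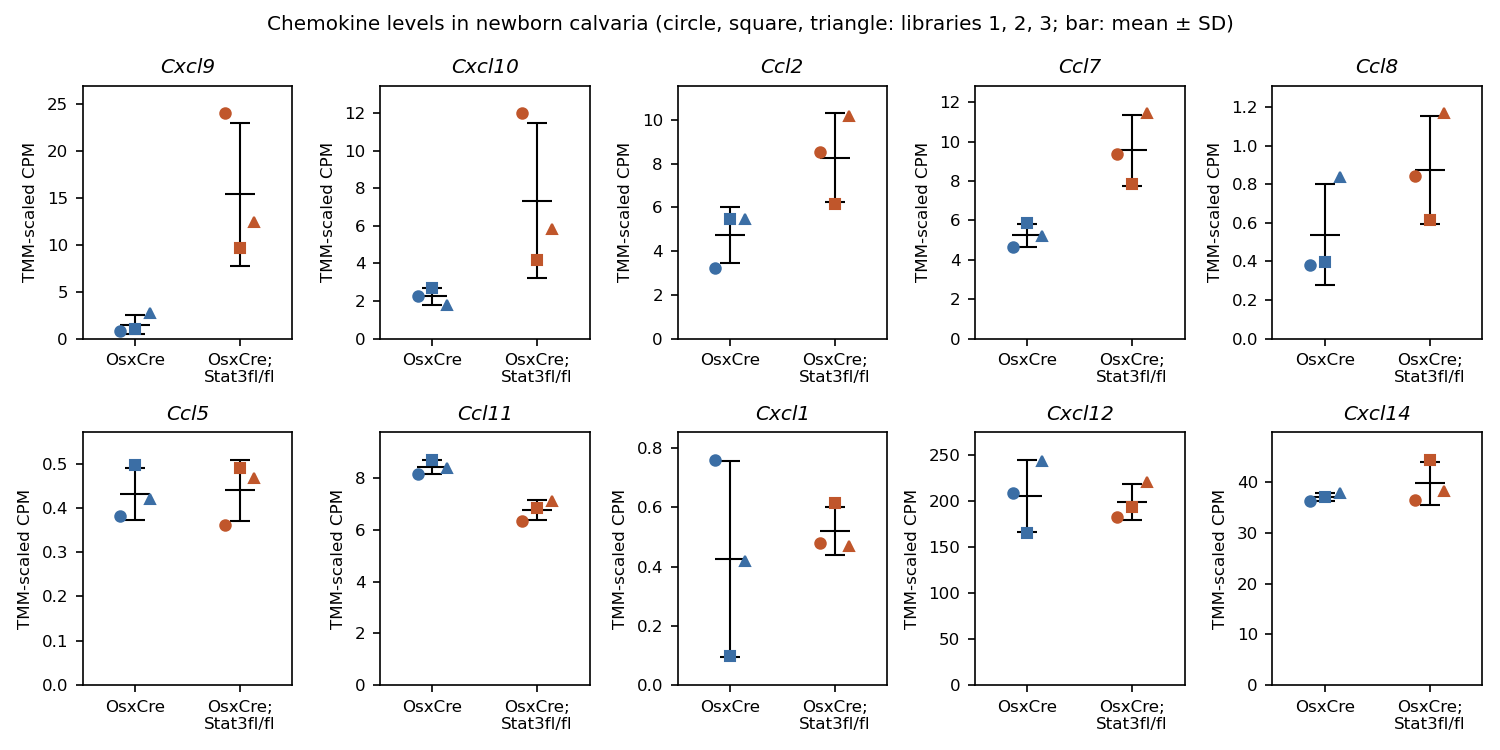
Level of each of the 10 chemokines in TMM-scaled CPM (linear axes from 0), with 1 point per library (circle, square and triangle for libraries 1, 2 and 3), the mean as a horizontal line and the SD as error bars, n = 3 per genotype by label. For *Cxcl9*, *Cxcl10*, *Ccl2* and *Ccl7* every point labelled OsxCre;Stat3fl/fl lies above every OsxCre point, for *Ccl11* every one lies below, and the others overlap.

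The ligands of CXCR3, a receptor of activated T cells and natural killer cells, showed the largest fold changes of the 7 tested. *Cxcl9* had 8, 10 and 32 counts in the OsxCre libraries (0.761, 0.991 and 2.69 CPM) and 200, 79 and 106 counts in the libraries labelled OsxCre;Stat3fl/fl (24.0, 9.68 and 12.4 CPM). All 3 of the latter were above the highest OsxCre library, and the first of them was far above the other two. The means were 1.48 ± 1.05 and 15.4 ± 7.61 CPM (SD, n = 3), a 10.1-fold difference by the fit, and *Cxcl9* rose by that test (log2 fold change 3.34, 95% interval 2.14 to 4.54, adjusted p = 0.0301, edgeR quasi-likelihood test). Its call was kept without OsxCre library 3 or without library 2 labelled OsxCre;Stat3fl/fl and lost without any of the other 4 (OsxCre 1 and 2, and 1 and 3 labelled OsxCre;Stat3fl/fl). With each library left out in turn, the log2 fold change was 2.87 to 4.11 and the adjusted p 0.0263 to 0.121. Over 15 alternative analyses the adjusted p was 4.12e-10 to 0.126, and limma-voom (0.0543) and the replicate number as a block (0.126) lost the call too.

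*Cxcl10*, which encodes a second interferon-induced ligand of the same receptor, had 2.28, 2.68 and 1.76 CPM in OsxCre and 12.0, 4.17 and 5.85 CPM in the libraries labelled OsxCre;Stat3fl/fl. The groups did not overlap, and the first library labelled OsxCre;Stat3fl/fl was again the highest. The means of 2.24 ± 0.459 and 7.34 ± 4.13 CPM (SD, n = 3) gave a log2 fold change of 1.71 (95% interval 0.76 to 2.67) with an adjusted p of 0.102 in edgeR's quasi-likelihood test, which misses the threshold. The adjusted p was 0.00674 to 0.248 over the 15 alternatives, 3 of which called it: DESeq2's Wald test with its own size factors and filtering in place of that filter (log2 fold change 1.72, adjusted p = 0.00674), the fit without the filter (1.70, 0.0234) and the fit without scaling (1.35, 0.0306). *Cxcl11*, for the remaining ligand of CXCR3, was near the floor with 8, 3 and 2 counts in OsxCre and 2 in each of the others.

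*Cxcl9* and *Cxcl10* are neighbours on chromosome 5 of GRCm38.p6, at chr5:92321331-92328079 and chr5:92346638-92348889, both on the minus strand and 18.6 kb apart. The 250 bases before the annotated start of each are shown because these are the members with the largest differences, and because the interferon and NF-kappaB routes named above act at such elements. Of the 36-base stretches in *Cxcl9* coding transcripts, 0.381% also occurred in transcripts of other genes, none of them chemokines, and of those in *Cxcl10* 0%. The windows are RefSeq sequence of GRCm38.p6, minus strand, read 5′ to 3′ at chr5:92328080-92328329 for *Cxcl9* and chr5:92348890-92349139 for *Cxcl10*, with capitals marking matches to a motif on either strand.
Cxcl9: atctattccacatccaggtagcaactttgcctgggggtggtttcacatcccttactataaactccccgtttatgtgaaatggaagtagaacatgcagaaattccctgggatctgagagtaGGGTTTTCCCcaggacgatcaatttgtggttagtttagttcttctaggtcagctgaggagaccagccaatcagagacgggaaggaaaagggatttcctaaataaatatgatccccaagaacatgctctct
Cxcl10: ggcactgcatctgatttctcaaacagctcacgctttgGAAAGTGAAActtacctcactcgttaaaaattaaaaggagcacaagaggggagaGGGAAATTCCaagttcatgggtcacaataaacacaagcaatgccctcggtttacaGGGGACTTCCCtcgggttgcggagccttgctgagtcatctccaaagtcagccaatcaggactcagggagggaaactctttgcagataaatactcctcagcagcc
The motifs searched on both strands were the STAT-binding GAS element (TTCNNNGAA), the interferon-stimulated response element ISRE (GAAA, any 2 bases, then GAAA) and the NF-kappaB site, with overlapping matches of one kind merged. *Cxcl9* held 1 NF-kappaB match, starting at base -130 from the start. *Cxcl10* held an ISRE match at base -213 and 2 NF-kappaB matches at -159 and -104. Of 32851 promoter windows of this length, 7.02% held a GAS match, 2.98% an ISRE match and 16.8% an NF-kappaB match. Promoter entries existed for 6 of the 10 chemokines and not for *Ccl2*, *Ccl5*, *Ccl7* and *Ccl11*. *Cxcl1* held NF-kappaB matches at -89 and -71, *Cxcl14* a GAS match at -191 and an ISRE match at -172, counted from a RefSeq start inside the outermost span of that gene, and *Cxcl12* and *Ccl8* held none of the 3. A match is a run of letters in this window and says nothing about binding.

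**Figure D2:**
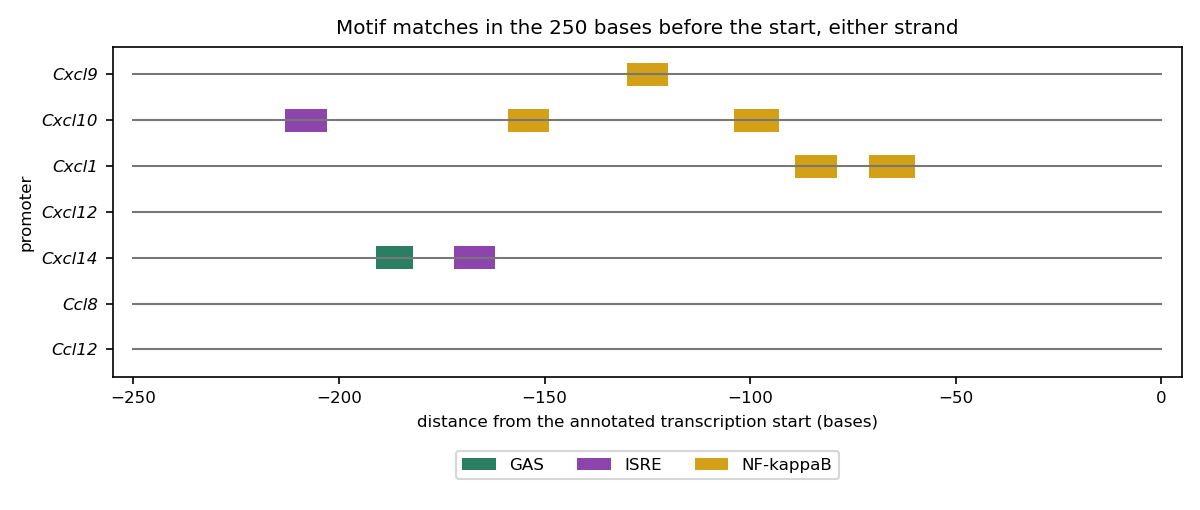
Matches to the GAS, ISRE and NF-kappaB motifs on either strand (colored boxes) in the 250 bases before the annotated start, with the distance from the start in bases on the horizontal axis and 1 line per promoter, for 6 of the 10 chemokines and *Ccl12*. *Cxcl10* holds 3 matches, *Cxcl1* and *Cxcl14* hold 2 each, *Cxcl9* holds 1, and *Cxcl12*, *Ccl8* and *Ccl12* hold none.

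The receptor and most markers of the cells that carry it were close to the floor. *Cxcr3* had 5, 7 and 10 counts in OsxCre and 8, 2 and 4 in the libraries labelled OsxCre;Stat3fl/fl. The 11 markers of T and natural killer cells summed to 5.42 to 6.71 CPM and 5.64 to 7.60 CPM, with *Cd8a* at 0 in every library and 5 of the 11 at or under 3 counts in all. The largest part of the sum was *Cd4*, at 3.46 ± 0.408 and 3.65 ± 0.787 CPM (SD, n = 3), which is found on helper T cells and on some macrophages. Of the inducers, *Ifng*, for interferon gamma, had 1 count over the 6 libraries, and *Ifnb1*, for interferon beta, had 0.

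Of 16 genes of interferon production, signaling and response that were followed as a list, 14 were tested. One rose and 0 fell at an adjusted p under 0.05. At an unadjusted p under 0.05, 6 were higher and 1 lower, and the median log2 fold change was 0.18. The shares of all genes tested, here and for the lists that follow, were 1.26% called, 8.03% higher and 8.34% lower at an unadjusted p under 0.05, with a median of -0.0037. *Irf7*, an interferon-induced transcription factor, was at 14.8 ± 1.18 CPM in OsxCre and 25.6 ± 2.40 CPM in the libraries labelled OsxCre;Stat3fl/fl (SD, n = 3; log2 fold change 0.80, adjusted p = 0.0279, edgeR quasi-likelihood test). That call held in 1 of the 6 fits that left out a library, the one without library 2 labelled OsxCre;Stat3fl/fl, with an adjusted p of 0.044 to 0.126 over the 6. The 3 members with the most RNA per length were *Ifngr1* (log2 fold change 0.26, adjusted p = 0.241), *Jak1* (0.10, 0.647) and *Ifnar1* (-0.11, 0.464).

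*Ccl2* and *Ccl7*, which encode ligands of CCR2, the receptor that draws monocytes into tissue, lie together on chromosome 11. In the cluster there, *Ccl2*, *Ccl7*, *Ccl11*, *Ccl12* and *Ccl8* follow each other within 81.2 kb, from 82035577 to 82116799 in GRCm38.p6. These are related genes, but in the GENCODE coding transcripts of NCBIM37 none of them shared a stretch of 36 bases with another gene. *Ccl2* had 3.24, 5.45 and 5.46 CPM in OsxCre and 8.53, 6.13 and 10.2 CPM in the libraries labelled OsxCre;Stat3fl/fl. *Ccl7* had 4.66, 5.85 and 5.20 CPM and 9.37, 7.85 and 11.5 CPM. For both genes all libraries labelled OsxCre;Stat3fl/fl were above all OsxCre libraries, library 3 was the highest of them and library 2 the lowest. The log2 fold change of *Ccl2* was 0.81 (95% interval 0.16 to 1.46, means 4.71 ± 1.28 and 8.28 ± 2.03 CPM, SD, n = 3, adjusted p = 0.208, edgeR quasi-likelihood test). That of *Ccl7* was 0.87 (0.40 to 1.34, means 5.24 ± 0.594 and 9.56 ± 1.82 CPM, SD, n = 3, adjusted p = 0.0948, edgeR quasi-likelihood test). Neither passed the threshold under any of 15 alternatives, with an adjusted p of 0.173 to 0.461 for *Ccl2* and 0.0519 to 0.261 for *Ccl7*.

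*Ccl12*, another CCR2 ligand of mice and not among the 10, had 5.14, 4.16 and 3.94 CPM in OsxCre and 9.13, 6.99 and 10.8 CPM in the libraries labelled OsxCre;Stat3fl/fl. It is named here after its values were seen. The groups did not overlap (means 4.42 ± 0.636 and 8.96 ± 1.89 CPM, SD, n = 3, log2 fold change 1.02, adjusted p = 0.0825, edgeR quasi-likelihood test), and 2 of 15 alternatives called it, the fit without the filter (0.0453) and DESeq2's Wald test with its own filtering (0.0248). *Ccl8*, at the far end of the cluster, had 4, 4 and 10 counts in OsxCre and 7, 5 and 10 counts in the other group, at means of 0.539 ± 0.260 and 0.874 ± 0.280 CPM (SD, n = 3). The ranges overlapped (exact permutation test, two-sided, p = 0.2), and at this depth a log2 fold change of 0.66 had a standard error of 0.53 in the fit without the filter.

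*Ccr2* itself had 3.52, 3.77 and 4.20 CPM in OsxCre and 4.08, 4.17 and 5.61 CPM in the libraries labelled OsxCre;Stat3fl/fl (log2 fold change 0.27, adjusted p = 0.598, edgeR quasi-likelihood test). Macrophage and monocyte markers had a higher sum in every library labelled OsxCre;Stat3fl/fl, as *Ccl2* and *Ccl7* had higher levels. Their 12 genes summed to 565 to 596 CPM in OsxCre and 658 to 690 CPM in the libraries labelled OsxCre;Stat3fl/fl, with a median log2 fold change of 0.20. Of the 12, 8 had a log2 fold change above 0 and 4 below (*Emr1* -0.29, *Cd14* -0.15, *Lyz2* -0.10 and *Ly6c2* -0.10, each overlapping), and *C1qb*, a complement subunit of macrophages, was the 1 member called (103 ± 5.01 and 146 ± 6.66 CPM, SD, n = 3, log2 fold change 0.50, adjusted p = 0.0253, called in 0 of 6 fits with a library left out, 0.065 to 0.104). In bulk RNA, more cells of a type and more RNA per cell cannot be told apart. The part of these markers in the chemokine values was not tested.

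*Ccl5* encodes a ligand of CCR1 made by T cells, macrophages and platelets. It had 4, 5 and 5 counts in OsxCre and 3, 4 and 4 counts in the libraries labelled OsxCre;Stat3fl/fl. All 6 libraries lay between 0.360 and 0.496 CPM, close to the floor (exact permutation test, two-sided, p = 1), and a difference was not detectable at this depth. *Ccr1* was at 22.3 ± 1.60 and 32.1 ± 3.73 CPM (SD, n = 3, log2 fold change 0.52, adjusted p = 0.0836, edgeR quasi-likelihood test).

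*Ccl11*, the eosinophil chemokine eotaxin that signals through CCR3, was the 1 member of the 10 to lie lower in every library labelled OsxCre;Stat3fl/fl. Its level was 8.18, 8.72 and 8.39 CPM in OsxCre and 6.36, 6.86 and 7.13 CPM in the others. Both groups were tight, at 8.43 ± 0.273 and 6.79 ± 0.390 CPM (SD, n = 3), and the difference of -0.31 on the log2 scale (95% interval -0.67 to 0.04) did not pass the test (adjusted p = 0.362, edgeR quasi-likelihood test). It passed in 1 of 15 alternatives, the fit without scaling (-0.69, adjusted p = 0.0237), which lowers most genes. The sign for *Ccl11* was thus opposite to that for *Ccl7* and *Ccl12*, which lie on either side of it. The exact permutation p was 0.1 for *Cxcl9*, *Cxcl10*, *Ccl2*, *Ccl7* and *Ccl11* alike, the smallest that 3 libraries against 3 can give.

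*Ccl24*, which encodes a second CCR3 ligand and lies on chromosome 5, fell by 1.24 on the log2 scale. It had 6.38, 5.95 and 7.80 CPM in OsxCre and 2.52, 3.43 and 2.57 CPM in the libraries labelled OsxCre;Stat3fl/fl, without overlap (6.71 ± 0.972 and 2.84 ± 0.512 CPM, SD, n = 3, adjusted p = 0.0498, edgeR quasi-likelihood test). The call was lost whichever library was left out (adjusted p 0.0734 to 0.189), and 6 of 15 alternatives kept it. *Ccr3* had 1.36 CPM on average in both groups (log2 fold change 0.00, adjusted p = 0.998). The eosinophil granule genes *Epx* and *Prg2* had at most 0.936 CPM in any library, while the 6 mast cell and eosinophil markers in the tables, led by the mast cell protease *Cma1*, summed to 169 to 221 CPM in OsxCre and 245 to 270 CPM in the others, with 0 members called.

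*Cxcl1* encodes a ligand of CXCR2, the receptor that brings neutrophils into tissue. It had 8, 1 and 5 counts in OsxCre and 4, 5 and 4 counts in the libraries labelled OsxCre;Stat3fl/fl. OsxCre libraries 1 and 2 enclosed all the others (exact permutation test, two-sided, p = 0.7), and with so few counts the log2 fold change of 0.26 in the fit without the filter had a standard error of 0.67. *Cxcr2* was at 3.93 ± 1.11 and 2.31 ± 0.776 CPM (SD, n = 3, log2 fold change -0.77, adjusted p = 0.307, edgeR quasi-likelihood test). Neutrophil markers had a lower sum in every library labelled OsxCre;Stat3fl/fl. Their 10 genes summed to 315 to 531 CPM in OsxCre and 132 to 214 CPM in the others, with a median log2 fold change of -1.21 over the 8 tested, and 3 fell: *Retnlg* (-1.67, adjusted p = 0.0154), *S100a9* (-1.25, 0.0423) and *Mmp8* (-1.05, 0.0456). Without 1 library, *Retnlg* was called in 4 of 6 fits and *S100a9* and *Mmp8* in 0. *Ngp* overlapped between the groups (-0.86, adjusted p = 0.269), as did *Mpo*, with 6.76, 3.37 and 8.31 CPM in OsxCre and 2.16, 4.54 and 14.3 CPM in the others (0.18, 0.926), and *Elane*, not tested, with 0.476, 0.595 and 1.34 CPM against 0, 0.981 and 2.69 CPM. The higher means of *Mpo* and *Elane* in the second group rest on library 3 labelled OsxCre;Stat3fl/fl. The relation of these markers to the chemokines was not tested.

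**Figure D3:**
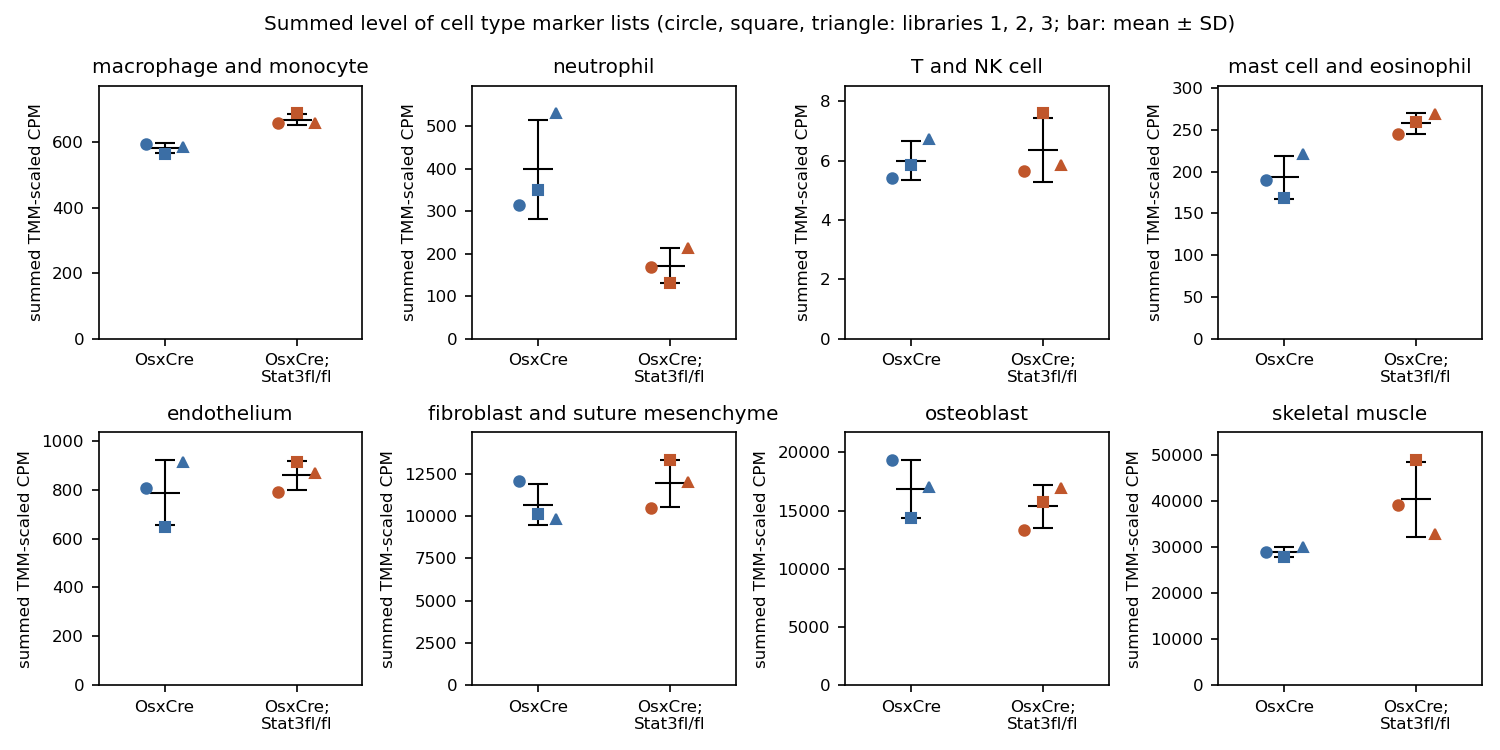
Summed level of 8 lists of cell type markers in TMM-scaled CPM (linear axes from 0), with 1 point per library (circle, square and triangle for libraries 1, 2 and 3), the mean as a horizontal line and the SD as error bars, n = 3 per genotype by label. Macrophage and monocyte, mast cell and eosinophil, and skeletal muscle sums are higher in every library labelled OsxCre;Stat3fl/fl, the neutrophil sum is lower in every one, and the other 4 overlap.

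The chemokines of unstimulated tissue, *Cxcl12* and *Cxcl14*, had the smallest differences of the 7 tested. *Cxcl12*, at chr6:117168535-117181368 in GRCm38.p6, had 208, 166 and 244 CPM in OsxCre and 182, 194 and 220 CPM in the libraries labelled OsxCre;Stat3fl/fl. The second group lay within the range of the first, at 199 ± 19.5 against 206 ± 39.2 CPM (SD, n = 3). On the log2 scale the difference was -0.05, with a 95% interval of -0.38 to 0.28 (adjusted p = 0.906, edgeR quasi-likelihood test), and its sign turned without OsxCre library 3 (0.088) or without library 1 labelled OsxCre;Stat3fl/fl (0.0085). Of its 2 receptors, *Cxcr4*, which holds hematopoietic cells near CXCL12, was at 10.8 ± 1.10 and 7.02 ± 0.517 CPM without overlap (log2 fold change -0.62, adjusted p = 0.118). *Ackr3*, which takes up CXCL12, was at 38.8 ± 3.83 and 41.0 ± 3.61 CPM (0.08, 0.776), and *Dpp4*, a protease that cleaves CXCL12, at 43.8 ± 6.18 and 39.1 ± 6.19 CPM (-0.16, 0.633). The 7 markers of reticular stroma summed to 247 to 314 and 271 to 319 CPM, and the 10 of fibroblasts and suture mesenchyme to 9842 to 12100 and 10469 to 13292 CPM.

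*Cxcl14*, at chr13:56288643-56296811, had 36.4, 37.2 and 37.9 CPM in OsxCre and 36.5, 44.5 and 38.4 CPM in the libraries labelled OsxCre;Stat3fl/fl. The values overlapped, and library 2 labelled OsxCre;Stat3fl/fl was the highest. The log2 fold change of 0.10 had a 95% interval of -0.12 to 0.32 (37.2 ± 0.791 and 39.8 ± 4.18 CPM, SD, n = 3, adjusted p = 0.667, edgeR quasi-likelihood test), and it turned to -0.28 without scaling. Skin, which makes much CXCL14, was little represented, with 7 epithelial markers at 8.98 to 14.6 and 12.7 to 18.0 CPM in sum.

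Levels were then compared between the chemokines per kilobase of transcript. In OsxCre the order ran from *Cxcl12* (36.6 ± 6.96 CPM per kb, SD, n = 3) over *Cxcl14* (20.4 ± 0.434), *Ccl11* (7.79 ± 0.252), *Ccl7* (6.54 ± 0.742), *Ccl2* (5.80 ± 1.58), *Cxcl10* (2.05 ± 0.419), *Ccl8* (1.05 ± 0.509), *Ccl5* (0.812 ± 0.110) and *Cxcl9* (0.509 ± 0.362) to *Cxcl1* (0.448 ± 0.347). *Cxcl12*, *Cxcl14* and *Ccl11* were set apart from their neighbours in every library, as *Ccl2* was from *Cxcl10*, whereas *Ccl7* and *Ccl2*, and each pair of neighbours from *Cxcl10* down, overlapped. In the libraries labelled OsxCre;Stat3fl/fl, *Cxcl12* (35.3 ± 3.46 CPM per kb) and *Cxcl14* (21.8 ± 2.29) kept the first places. *Ccl7* (11.9 ± 2.27), *Ccl2* (10.2 ± 2.50), *Cxcl10* (6.71 ± 3.77), *Ccl11* (6.27 ± 0.361) and *Cxcl9* (5.29 ± 2.62) followed, each overlapping the next. *Cxcl9* stood ninth by level in OsxCre, and in the libraries labelled OsxCre;Stat3fl/fl it lay above *Ccl8* (1.71 ± 0.548) in every library.

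**Figure D4:**
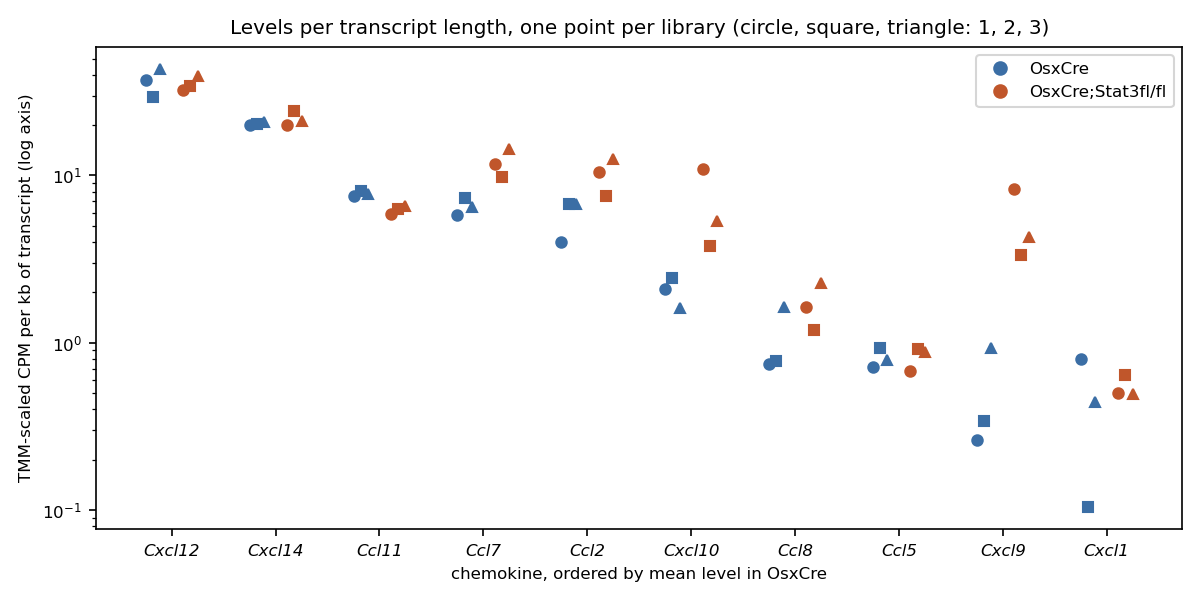
Level of the 10 chemokines per kilobase of their longest protein-coding transcript, in TMM-scaled CPM per kb on a log axis, with 1 point per library, blue for OsxCre and orange for libraries labelled OsxCre;Stat3fl/fl. *Cxcl12* and *Cxcl14* lie highest in both groups, and *Cxcl9* has means of 0.509 and 5.29 CPM per kb.

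The other members of the family were followed as lists. Of 28 further chemokine ligands, 12 were tested and 9 had at most 3 counts in every library. At an adjusted p under 0.05, 0 were higher and 1 (*Ccl24*) was lower. At an unadjusted p under 0.05, 3 were higher and 2 lower, beside 8.03% and 8.34% of all genes tested (1.26% called), and the median log2 fold change was 0.14. The 3 with the most RNA per length were *Pf4*, a platelet and megakaryocyte chemokine (77.9 ± 7.01 and 97.5 ± 6.34 CPM, log2 fold change 0.32, adjusted p = 0.139), *Ccl21a*, a lymphatic chemokine with near-identical gene copies that makes its counts uncertain (27.2 ± 3.52 and 18.4 ± 0.863 CPM, -0.56, 0.0825), and *Ccl9*, a macrophage and osteoclast chemokine (38.1 ± 11.9 and 50.0 ± 5.32 CPM, 0.39, 0.416). Of 24 chemokine receptors and ligand-modifying genes, 13 were tested, 0 were called in either direction, 2 were higher and 2 lower at an unadjusted p under 0.05 (8.03% and 8.34% of all genes tested), and the median log2 fold change was 0.26. *Ackr3*, *Ccr1* and *Ackr1*, the last listed as *Darc* (12.1 ± 4.42 and 14.5 ± 2.40 CPM, adjusted p = 0.697), had the most RNA per length among them.

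**Figure D5:**
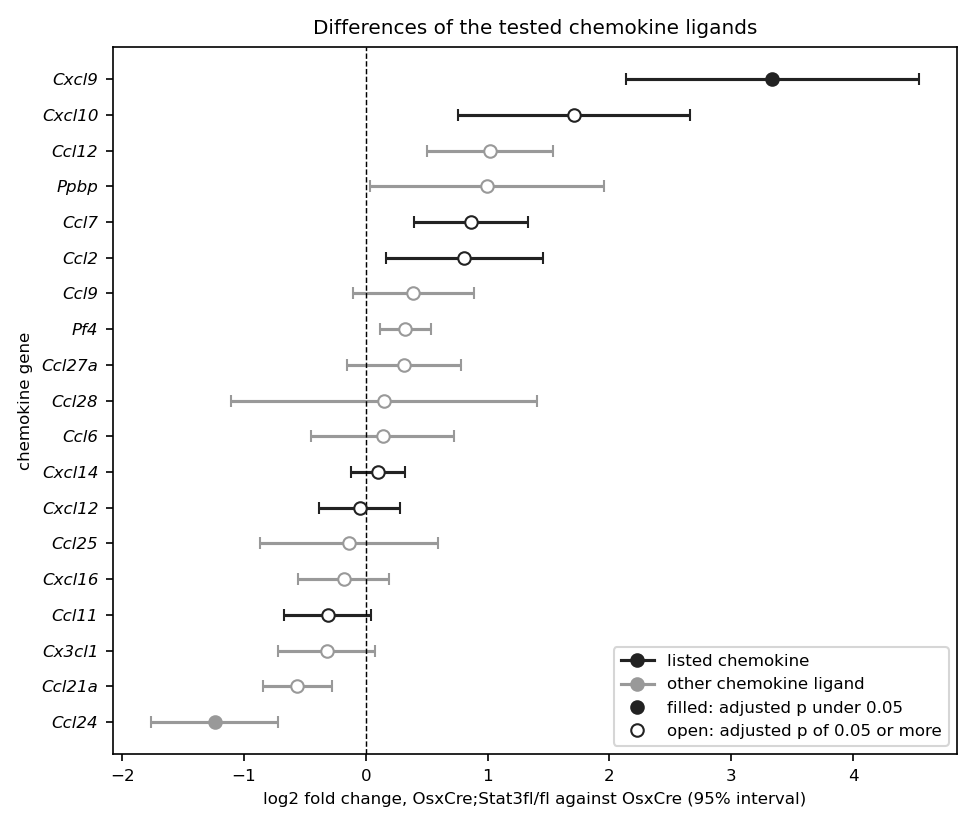
Log2 fold change of the libraries labelled OsxCre;Stat3fl/fl against OsxCre (points) with its 95% interval (bars) from edgeR's quasi-likelihood fit, for the 7 tested chemokines (black) and 12 further tested chemokine ligands (gray), with filled points for an adjusted p under 0.05. *Cxcl9* (3.34) and *Ccl24* (-1.24) are the filled points, at the top and the bottom of the order.

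Of 24 genes on the NF-kappaB and cytokine side of chemokine induction, 17 were tested, 2 rose and 0 fell, 4 were higher and 1 lower at an unadjusted p under 0.05 (1.26% of all genes tested called, 8.03% higher and 8.34% lower), and the median log2 fold change was 0.13. *Cebpd*, a transcription factor of the acute-phase response, rose from 22.3 ± 2.90 to 51.2 ± 7.73 CPM (SD, n = 3, log2 fold change 1.20, adjusted p = 0.0142, edgeR quasi-likelihood test) and kept its call in 5 of 6 fits with a library left out, losing it without library 3 labelled OsxCre;Stat3fl/fl (0.0715). *Nfkbia*, an inhibitor of NF-kappaB that NF-kappaB itself induces, rose from 56.2 ± 2.94 to 78.5 ± 3.78 CPM (0.48, 0.0345), a call lost whichever library was left out (0.0799 to 0.121). *Tnfaip3*, another inhibitor that NF-kappaB induces, was the 1 member lower at an unadjusted p under 0.05, at 12.5 ± 1.67 and 8.75 ± 0.154 CPM without overlap (-0.51, adjusted p = 0.159). *Tnf* and *Il1b*, for inducers named above, and *Il6*, for another cytokine of the list, were scarce. *Tnf* had 16, 15 and 15 counts against 7, 7 and 16 (adjusted p = 0.812), *Il1b* had 9, 13 and 21 against 15, 7 and 7 (0.892), and *Il6* had at most 4 counts in any library. *Lif*, for a further cytokine of the list, had 82, 78 and 82 counts against 72, 50 and 83. Scaled for depth, its means were 7.47 ± 0.513 and 8.16 ± 1.84 CPM (SD, n = 3, log2 fold change 0.13, adjusted p = 0.816, edgeR quasi-likelihood test). Among the genes of the list with a known length, which *Cebpd* lacked, *Tnfrsf1a* (0.21, 0.28), *Nfkbia* and *Rela* (0.17, 0.375) had the most RNA per length.

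The genes most like *Cxcl9* over the 6 libraries, by Pearson correlation of log2 CPM, were *Apol6* (r = 0.989), *H2-T22* (0.988), a class I histocompatibility gene, and *Ccdc101* (0.987), while 293 genes had r above 0.9. *Apol6* was at 4.09 ± 1.55 CPM in OsxCre and 11.7 ± 3.85 CPM in the libraries labelled OsxCre;Stat3fl/fl (log2 fold change 1.50, adjusted p = 0.0824, edgeR quasi-likelihood test). For *Cxcl12*, the chemokine with the highest level per length, they were *Oxsm* (r = 0.990), *Ammecr1l* (0.989) and *Flt4* (0.989), and 82 genes had r above 0.9. These 6 points share the difference between the genotypes, and so many genes reach such an r that it describes only these libraries.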

How the data were processed

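Bulk RNA-seq of newborn parietal bone was used, with 3 libraries per genotype, grouped and numbered by their labels. The authors deposited, for each library, whole-number counts of reads per gene symbol, not normalized. The submitters' processing notes name HISAT2 and GRCm38, whereas the methods of the study name TopHat with mm9 and FPKM values. Which route gave the counts, and by which counting program and annotation, is not given in the sources used here. The labels give polyadenylated RNA and the study total RNA.

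The software was R 4.3.3 with the packages edgeR (version 4.0.16), limma (version 3.58.1) and DESeq2 (version 1.42.0). Genes under filterByExpr (minimum count 10, minimum total 15) were removed, libraries were scaled by TMM, and genotypes were compared by the two-sided quasi-likelihood test of edgeR, and p-values were adjusted by Benjamini-Hochberg across 15600 genes. Standard errors are the log2 fold change divided by the square root of F. Single values were compared by an exact permutation test. Floors of 3 counts cover counting error only, and p-values measure the spread between the 3 mice of a genotype. Library pairs of a genotype differed by more than sampling noise (chi-square of 7.51 to 15.6 per degree of freedom).

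Lengths are those of the longest protein-coding transcript in the NCBIM37 (mm9) GENCODE annotation, which gave none for some list genes such as *Cebpd*. Promoters and positions are RefSeq, GRCm38.p6. Genes named are *Stat3*, the 10 chemokines, list and marker genes with an adjusted p under 0.05, the 3 with the most RNA per length in each list, sex-linked genes and, for likeness, the 3 genes closest to the member with the smallest p and to the one with the highest level. Other receptors, inducers, markers and *Ccl12* were named after their values were seen. Values of some list genes are not reported here, although the list counts include them. The members and lists were chosen with earlier results of these data known. Alternatives were other scalings, filters and tests, the replicate number as a block and leaving out each library. Python 3.11.15, pandas 2.3.3 and matplotlib 3.10.9 were used for sequences and plots.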

Additional observations from a re-analysis of the deposited data

How the results depend on the processing

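The number of genes called, 196, became 5572 without scaling (121 higher and 5451 lower), 428 without the filter, 552 with DESeq2's Wald test, which was fitted on the same 28016 genes as the analysis without the filter and used its own size factors and filtering, so that scaling, filter and test changed together, 1 with the replicate block and 12 to 103 with a library left out. The share of calls that were higher was 61.7%, against 49.6% with library totals and 2.17% without scaling, which moved the median log2 fold change of all genes to -0.38. Of the 10 chemokines, 1 was called in the main analysis, 3 without scaling (*Ccl11*, *Cxcl9* and *Cxcl10*), 2 without the filter and 2 with DESeq2 (*Cxcl9* and *Cxcl10* each time), 0 with limma-voom, 0 with the replicate block and 0 to 1 with a library left out. The cause of these changes was not tested, except that the unscaled fit keeps the difference in depth between the groups. Of the 19 genes refitted under every alternative, those that changed sign were *Stat3* (-0.26) and *Cxcl14* (-0.28) without scaling, and *Cxcl12*, whose log2 fold change was -0.19 to 0.088 with a library left out. *Cxcl9*, *Cxcl10*, *Ccl2* and *Ccl7* were higher and *Ccl11* lower under all 15 alternatives run. The deviations of same-numbered libraries from their group means had a correlation across genes of -0.10, -0.52 and -0.09 for numbers 1, 2 and 3. None was positive, and only that of number 2 was far from 0. Deviations from a mean of 3 libraries depend on each other, so these values cannot decide whether the numbers pair the libraries. The replicate block left *Cxcl9* at a log2 fold change of 3.36 and an adjusted p of 0.126 in edgeR's quasi-likelihood test. Depth limits *Cxcl1*, *Ccl5* and *Ccl8*, which had at most 10 counts in any library.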
